A study of Mus musculus with 2 samples.

Results

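The platelet-derived growth factor (PDGF) genes were followed through 2 single-cell RNA libraries of mouse cerebral cortex. The set is the 4 ligand genes Pdgfa, Pdgfb, Pdgfc and Pdgfd and the 2 receptor genes Pdgfra and Pdgfrb, 6 of the 25595 genes of the deposited tables, and each was measured over every cell that had 300 genes or more and no more than 25% mitochondrial molecules. The N-PRα-KO library, called the knockout library from here on, came from mice with the genotype Nestin-Cre;Pdgfraflox/flox, in which Cre driven by Nestin, a gene of neural progenitors, removes the floxed receptor gene. The WT library came from C57BL/6J mice. In both, cortex and meninges were dissociated together and cells were taken with magnetic beads and an antibody to CD140a, the protein that Pdgfra encodes. Each genotype is 1 library, and age, sex, number of animals, preparation and processing version therefore cannot be told apart from genotype. Intervals below cover counting error only, and no test between genotypes was possible.

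PDGFs are secreted dimers that signal through a pair of receptor tyrosine kinases. The A and C chains act on the receptor made from Pdgfra, the D chain mainly on the receptor made from Pdgfrb, and the B chain on both. In the brain PDGF-A drives the expansion of oligodendrocyte precursors, and PDGF-B from endothelial cells recruits pericytes, the contractile-lineage cells that wrap capillaries.

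After filtering and removal of doublet calls there were 4168 cells in the knockout library, with a median of 5775 unique molecules (UMIs), and 9896 cells in the WT library, with a median of 3264. The libraries' tables share 105 cell barcodes, 38 of them among the kept cells. Clusters were named from marker genes with all 6 PDGF genes left out of the clustering and of the markers. Oligodendrocyte-lineage-like cells made up 1.61% of the knockout cells and 51.0% of the WT cells, and fibroblast-like cells 24.1% and 6.31%. Most classes were held by different clusters in the 2 libraries, and the clusters are named beside the ratios. Only 12 WT cells fell in the choroid-plexus-like cluster, and their summed choroid plexus markers stood at 3323 CPM (UMIs per 1000000 UMIs of a group of cells), against 143981 CPM in the 39 knockout cells and beside 12190 CPM for oligodendrocyte-lineage markers in the same 12 cells. These WT cells go against their class name and are not used. The border-macrophage-like cluster also had the neutrophil genes Ngp, S100a8 and S100a9 among its leading genes.

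The ligands were not all highest in the same class. The libraries shared the highest class for 3 of the 4 ligands, though for WT Pdgfb its interval overlaps that of the next class. The class that came next differed between the libraries for each of the 4. In the knockout library that place is not separated from the third class for Pdgfb, Pdgfc and Pdgfd, where intervals overlap. For Pdgfa it was oligodendrocyte-lineage-like, a class whose largest knockout cluster had only 47.1 CPM. Pdgfa was highest in mural-like cells, Pdgfb and Pdgfd in endothelial-like cells, and Pdgfc was low throughout. Levels are CPM over the summed cells of a class in a library. They are compared between classes and libraries for the same gene, not between genes.

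Pdgfa, the A chain gene (chromosome 5, 138976014 to 138997370, minus strand, GRCm38), stood in mural-like cells at 371 CPM (95% interval 343 to 400) in the knockout library and at 423 CPM (329 to 537) in the WT library. These rest on 675 UMIs in 365 cells and 68 UMIs in 52 cells. The next class in the knockout library was oligodendrocyte-lineage-like at 187 CPM (154 to 225), and in the WT library ependymal-like at 157 CPM (140 to 175). Ependymal-like cells in the knockout library had 103 CPM (94.2 to 113). In both libraries the interval of the mural-like cells lay above those of all other classes with at least 50 cells. Microglia-like cells, set as the unrelated class for this gene, had 28.0 and 28.5 CPM, and free RNA was estimated at 9.598 and 5.72 CPM there. The free-RNA estimate scales a gene's level over the whole library by how much of unrelated classes' markers appears in a class.

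Within the oligodendrocyte lineage, Pdgfa was highest in the cells with myelin genes. Cluster 25, with Enpp6 and Myrf among its leading genes, had 507 CPM (469 to 547) in 148 WT cells and 389 CPM (314 to 476) in 9 knockout cells. The 5 WT clusters of precursors, clusters 0, 1, 2, 5 and 15, had 44.7 to 64.8 CPM, and knockout cluster 31, which holds 46 precursor-like cells and no WT cell, had 47.1 CPM. The intervals of the myelin-gene cells and of the precursors do not overlap in either library. Pdgfra ran the other way in the WT library, at 206 CPM in cluster 25 and 2993 to 5819 CPM in the precursor clusters. Ligand and receptor were thus highest in different cells of the lineage, but cluster 25 held only 653 of the 1638 Pdgfa UMIs of the WT class. Of the 954 WT cells with a Pdgfa UMI, 907 also had a Pdgfra UMI, and after thinning to 2000 UMIs 445 of 498 did. Among WT cells without a Pdgfa UMI, 4046 had a Pdgfra UMI and 48 did not, and after thinning 3801 and 83. The share with Pdgfra was thus lower in the cells with Pdgfa than in the rest of the class.

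Neuronal-lineage-like cells also differed among themselves for Pdgfa. Cluster 22, led by Neurod1, Eomes and Tbr1, transcription factors of excitatory neurogenesis, had 172 CPM (127 to 228) in the knockout library and 98.1 CPM (72.1 to 131) in WT. Cluster 27, knockout cells led by the interneuron genes Dlx1 and Dlx6os1, had 4.94 CPM, and cluster 16, WT cells led by the same 2 genes, had 11.3 CPM. Cluster 9, led by Dlx1 and Dlx2 with Eomes also among its leading genes, had 91.6 CPM (71.0 to 116) in 95 knockout cells and 60.6 CPM (49.99 to 72.8) in 417 WT cells, so cells with Dlx genes differed among themselves. Clusters 27 and 16 are at or near the free-RNA estimate of 8.83 CPM in the knockout and 5.09 CPM in the WT neuronal-lineage-like cells. Among astrocyte-like cells, the clusters led by Thbs4 had the higher level, 63.7 CPM in knockout cluster 21 and 48.7 CPM in WT cluster 3. The remaining astrocyte-like clusters of more than 20 cells had 19.8 CPM in the knockout library and 9.16 and 16.3 CPM in the WT library.

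Pdgfb, the B chain gene (chromosome 15, 79995874 to 80014977, minus strand), was highest in endothelial-like cells. It stood there at 155 CPM (145 to 166; 856 UMIs) in the knockout library and 204 CPM (186 to 224; 454 UMIs) in WT. Endothelial-like cells held 65.5% of all Pdgfb UMIs in the knockout library and 49.5% in the WT library. Microglia-like cells came next in the WT library with 169 CPM (152 to 189), and their interval overlaps that of the endothelial-like cells. In the knockout library microglia-like cells had 50.5 CPM (43.1 to 58.8), close to mural-like cells at 51.6 CPM (41.7 to 63.1). The unrelated ependymal-like and oligodendrocyte-lineage-like cells had 13.2 and 10.2 CPM in the knockout library and 15.6 and 2.14 CPM in the WT library.

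Among endothelial-like cells, Pdgfb was highest in a sub-cluster led by Piezo2, Chst1 and Apln, with the highest score for tip-like markers, genes of sprouting vessel ends. It had 285 CPM (232 to 346) in 45 knockout cells and 537 CPM (318 to 848) in 9 WT cells. The other endothelial-like sub-clusters of at least 40 knockout cells had 111 to 198 CPM, below that interval. Cells with arterial markers, cluster 26 led by Gkn3 and Sema3g, had 156 CPM in 77 knockout cells and 264 CPM in 74 WT cells.

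Pdgfd, the D chain gene (chromosome 9, 6168584 to 6378850, plus strand), was also highest in endothelial-like cells. The levels were 50.8 CPM (45.0 to 57.1) in the knockout library and 83.2 CPM (71.6 to 96.1) in WT, and in both the interval lay above that of every other class with at least 50 cells. Cluster 26 carried more of it than the remaining endothelial-like cells, 106 CPM (85.0 to 131) in the knockout library and 185 CPM (148 to 228) in WT. The remaining cells had 41.2 CPM (35.6 to 47.4) in knockout cluster 12 and 55.9 CPM (45.4 to 68.1) in WT cluster 19. Pdgfa followed the same order, with 149 and 272 CPM in cluster 26 against 27.7 CPM in cluster 12 and 82.7 CPM in cluster 19. The arterial-marked cells were thus the endothelial-like cells with the most Pdgfa and Pdgfd in both libraries. The microglia-like level of Pdgfd was 1.22 CPM and 1.55 CPM.

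Pdgfc, the C chain gene (chromosome 3, 81036416 to 81214040, plus strand), had only 165 UMIs over all knockout cells and 362 over all WT cells. Astrocyte-like cells had 13.8 CPM (10.3 to 18.01) in the knockout library and 21.7 CPM (18.4 to 25.4) in WT. Mural-like cells had 23.6 CPM (17.1 to 31.8) in the knockout library. The WT mural-like cells had 1 UMI, so no order could be read from it. Within the knockout mural-like cells, the sub-cluster with smooth muscle markers, led by Cnn1 and Sh3bgr, had 47.5 CPM (32.3 to 67.4). Microglia-like cells had 2 UMIs in the knockout library and 0 in the WT library, where 3 counts would be 1.55 CPM.

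**Figure D1:**
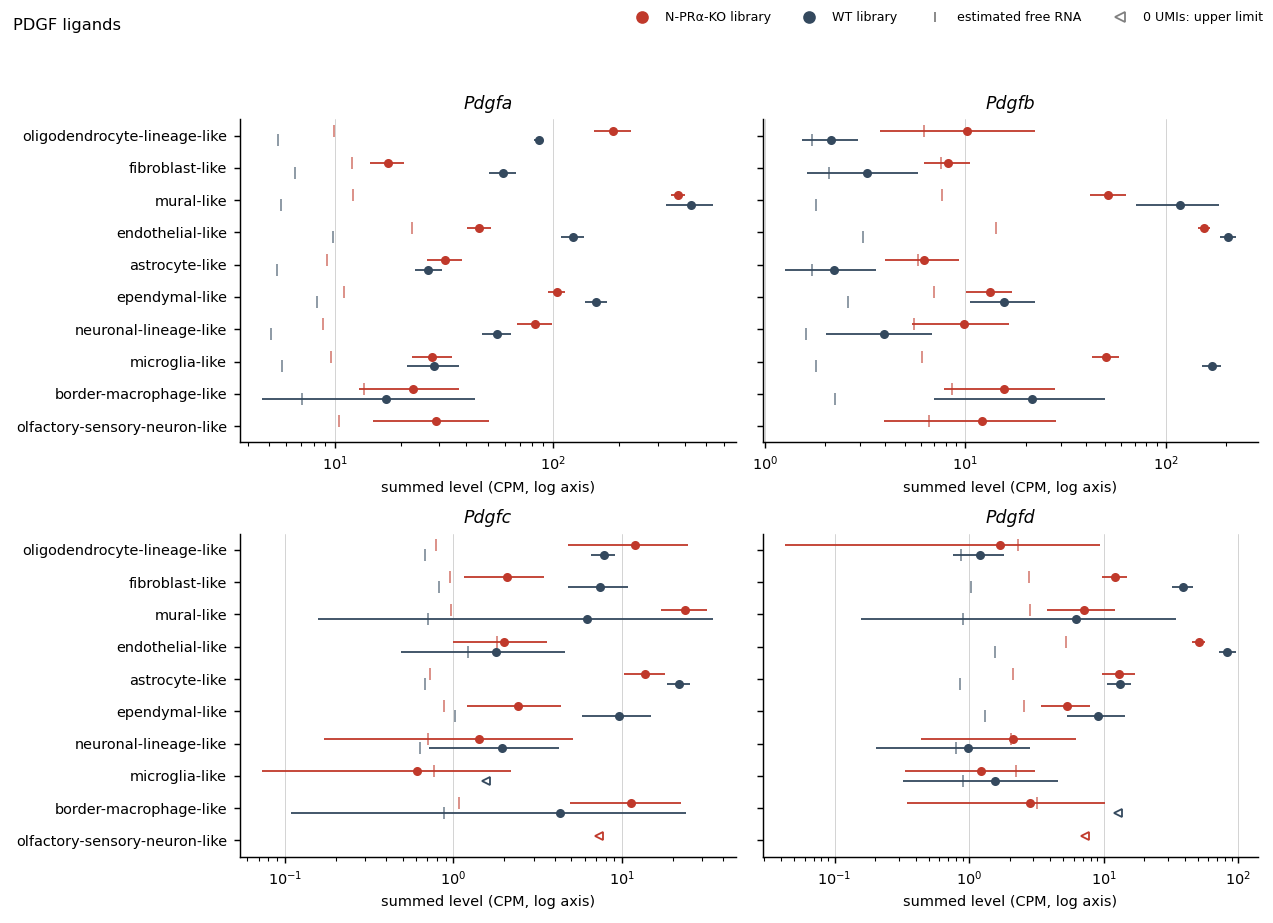
Summed level of each ligand gene (CPM, log axis) in the classes with at least 50 cells, N-PRα-KO library in red and WT library in dark blue, with 95% Poisson intervals as bars, estimated free RNA as ticks and open triangles at the level of 3 counts where no UMI was found. Pdgfa peaks in mural-like cells at 371 and 423 CPM, and Pdgfb and Pdgfd peak in endothelial-like cells.

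The receptors divided the classes. Pdgfra was highest in oligodendrocyte-lineage-like and fibroblast-like cells, and Pdgfrb in mural-like cells, followed by fibroblast-like cells. Fibroblast-like cells were the class with both receptors well above the unrelated classes.

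Pdgfra (chromosome 5, 75152292 to 75198215, plus strand) is the targeted gene and encodes the antigen of the sort. It stood at 1928 CPM (1817 to 2043) in the 67 oligodendrocyte-lineage-like cells of the knockout library and at 4646 CPM (4616 to 4677) in the 5048 of the WT library. The median cell had 17 and 16 Pdgfra UMIs, but the median depth of these cells was 6071 UMIs in the knockout and 3329.5 UMIs in the WT library. Of the knockout cells, 46 lay in cluster 31, where Pdgfra was at 3672 CPM (3450 to 3905) and ranged from 1 to 53 UMIs with no cell at 0. Another 9 knockout cells lay in cluster 25, with 25.1 CPM (9.21 to 54.6), and 6 in cluster 2, with 196 CPM from 4 UMIs and 59179 CPM of haemoglobin genes. The class therefore mixes cells with many Pdgfra UMIs and cells with next to none. The deleted exons are not named in the labels, and reads from transcript ends can lie outside them, so Pdgfra UMIs do not check the deletion.

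In fibroblast-like cells Pdgfra stood at 655 CPM (636 to 674) in the knockout library and 690 CPM (662 to 718) in WT. These cells held 70.5% of the Pdgfra UMIs of the knockout library and 2.49% of those of the WT library. In the other classes with at least 50 cells Pdgfra ran from 23.3 to 106 CPM in the knockout library and from 130 to 287 CPM in the WT library. The free-RNA estimate for endothelial-like cells, an unrelated class, was 73.2 CPM in the knockout and 318 CPM in the WT library, above the measured 61.3 and 170 CPM. The estimate is thus too high in that class. For microglia-like cells it was 31.1 and 184 CPM beside the measured 25.5 and 157 CPM. Border-macrophage-like cells were the highest of these classes in both libraries, at 106 CPM (83.7 to 133) and 287 CPM (222 to 364), beside estimates of 44.1 and 229 CPM.

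Pdgfrb (chromosome 18, 61045150 to 61085061, plus strand), the receptor gene of pericytes, stood in mural-like cells at 377 CPM (349 to 406; 687 UMIs) in the knockout library and 380 CPM (291 to 488; 61 UMIs) in WT. Fibroblast-like cells had 149 CPM (141 to 159) and 78.0 CPM (68.9 to 88.0). Endothelial-like cells had 70.0 CPM (63.2 to 77.4) and 67.4 CPM (57.1 to 79.1). In the WT library the intervals of fibroblast-like and endothelial-like cells overlap, and in the knockout library they do not. Astrocyte-like cells followed at 34.0 and 25.7 CPM. The unrelated microglia-like and ependymal-like cells had 13.4 and 14.8 CPM in the knockout library and 1.55 and 4.54 CPM in the WT library.

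Mural-like cells split by receptor and ligand. The sub-cluster with pericyte markers, led by Sfrp2, Abcc9 and Chp2, had Pdgfrb at 733 CPM (638 to 837) in 71 knockout cells and 764 CPM (428 to 1261) in 8 WT cells. Its Pdgfa was 129 CPM (91.6 to 178) in the knockout library. The smooth-muscle-marked sub-cluster of 108 knockout cells had Pdgfrb at 236 CPM (200 to 276) and Pdgfa at 381 CPM (336 to 432). The largest sub-cluster, 179 knockout cells led by Thsd4 and Olfr558, had 365 and 438 CPM. The pericyte-marked cells thus had the most receptor and the least ligand of these 3 sub-clusters. In the WT library 38 of the 52 mural-like cells lay in the dividing sub-cluster, which had Pdgfa at 484 CPM (371 to 621) and Pdgfrb at 359 CPM.

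Part of the endothelial-like Pdgfrb lay in sub-clusters with genes of other classes. A sub-cluster of 43 knockout cells led by Sfrp2 and with the pericyte gene Kcnj8 among its leading genes had 213 CPM of Pdgfrb. A sub-cluster of 55 knockout cells led by Spp1, Srpx2 and Tgfbi, which are also leading genes of fibroblast-like cluster 6, had 118 CPM of Pdgfrb and 198 CPM of Pdgfra. The part of mixed cells in these values was not tested.

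**Figure D2:**
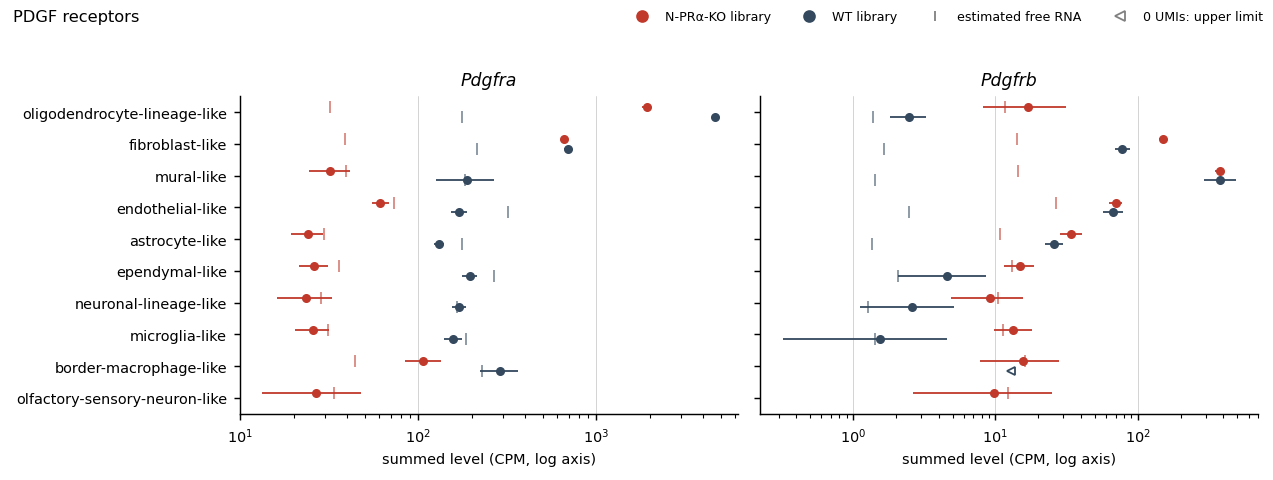
Summed level of each receptor gene (CPM, log axis) in the classes with at least 50 cells, N-PRα-KO library in red and WT library in dark blue, with 95% Poisson intervals as bars, estimated free RNA as ticks and an open triangle at the level of 3 counts where no UMI was found. Outside the oligodendrocyte-lineage-like and fibroblast-like cells, Pdgfra lies from 23.3 to 106 CPM in the knockout library and from 130 to 287 CPM in the WT library, while Pdgfrb is highest in mural-like cells of both.

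Fibroblast-like cells were heterogeneous for 5 of the 6 genes. Cluster 6, 618 knockout cells led by Col6a3, Col15a1 and Srpx2 and placed in sub-clusters with the highest scores for perivascular or pial markers, had Pdgfra at 846 CPM (819 to 874) and Pdgfrb at 197 CPM (185 to 211). It had little ligand, with Pdgfa at 8.36 CPM, Pdgfd at 1.13 CPM and Pdgfc at 0.678 CPM. Cluster 23, led by Nov, Shisa3 and Slc47a1 and mostly in sub-clusters that score highest for dural markers, had the reverse. Its 65 knockout and 120 WT cells had Pdgfra at 127 CPM (102 to 155) and 172 CPM (145 to 202), and Pdgfrb at 23.1 and 14.4 CPM. Its Pdgfa was 59.9 CPM (43.5 to 80.4) and 104 CPM (83.6 to 129), its Pdgfd 47.6 CPM (33.2 to 66.2) and 56.4 CPM (41.4 to 74.97), and its Pdgfc 12.2 and 27.6 CPM. The WT Pdgfra level of cluster 23 is below the free-RNA estimate of 213 CPM for the class.

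Clusters 18 and 10 share 6 of their 10 leading genes, among them Slc6a20a, Aldh1a2 and Gjb2, and had intermediate levels of Pdgfrb, Pdgfa and Pdgfd. For Pdgfra, the intervals of clusters 10 and 6 overlap. Cluster 18 in the knockout library (322 cells) had Pdgfra at 431 CPM (403 to 460) and cluster 10 in the WT library (496 cells) at 862 CPM (826 to 899). Pdgfrb was at 91.0 CPM (78.5 to 105) and 100.1 CPM (88.1 to 113). Pdgfa was at 21.9 CPM (16.0 to 29.3) and 43.7 CPM (35.9 to 52.7), and Pdgfd at 22.9 CPM (16.8 to 30.4) and 33.0 CPM (26.3 to 40.9). Between these 2 clusters the log2 ratio, knockout over WT, was -1.0004 (-1.11 to -0.89) for Pdgfra, -0.14 (-0.42 to 0.14) for Pdgfrb, -0.996 (-1.53 to -0.48) for Pdgfa and -0.53 (-1.08 to 0.01) for Pdgfd. Within cluster 23 it was -0.44 (-0.83 to -0.05) for Pdgfra, -0.80 (-1.36 to -0.26) for Pdgfa and -0.24 (-0.92 to 0.42) for Pdgfd. This pairing was chosen after the values were seen, and free RNA, estimated at 38.8 CPM of Pdgfra for knockout and 213 CPM for WT fibroblast-like cells, moves in the same direction as the Pdgfra ratios, and its part was not tested. Cluster 10 is also more mixed than cluster 18. It includes a WT sub-cluster of 19 fibroblast-like cells led by the precursor gene Lhfpl3, with Pdgfra at 1905 CPM. A further 31 of its cells were in the dividing sub-cluster and 92 in a sub-cluster led by Uhrf1. In knockout cluster 18, 291 of the 322 cells lay in a single sub-cluster. The part of these cells in the ratios between clusters 18 and 10 was not tested.

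**Figure D3:**
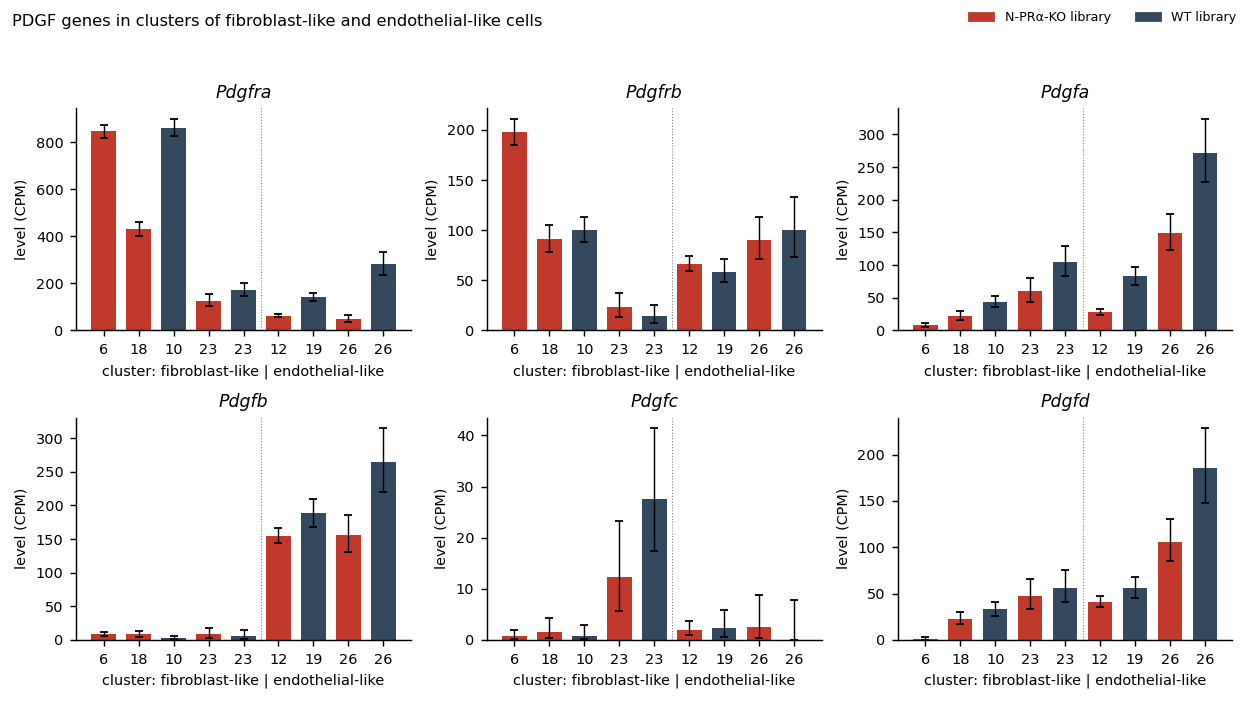
Level of each PDGF gene (CPM, linear axis from 0, bars with 95% Poisson intervals) in clusters of fibroblast-like cells (left of the dotted line) and endothelial-like cells (right), N-PRα-KO library in red and WT library in dark blue. Pdgfra and Pdgfrb fall from clusters 6 and 10 to cluster 23 while Pdgfa, Pdgfc and Pdgfd are highest in cluster 23 among the fibroblast-like clusters, and Pdgfa and Pdgfd are highest in cluster 26 among the endothelial-like clusters.

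Both receptors were found together mainly in fibroblast-like cells. At an equal depth of 2000 UMIs per cell, 17.8% (95% Clopper-Pearson interval 15.4 to 20.3) of 997 knockout and 13.6% (10.9 to 16.7) of 572 WT fibroblast-like cells had a UMI of each receptor, and the 2 intervals overlap. Without thinning a Pdgfra UMI was present in 87.4% of knockout and 83.7% of WT fibroblast-like cells, and a Pdgfrb UMI in 55.5% and 31.2%. The median depth of these cells was 6315 and 4603 UMIs. The WT oligodendrocyte-lineage-like cells had Pdgfra alone in 96.5% of 4382 cells and both receptors in 0.434%. Mural-like cells had Pdgfrb alone in 46.5% of 361 knockout cells and 47.5% of 40 WT cells, and both in 2.77% and 7.50%. Microglia-like cells, an unrelated class with median depths of 5615 and 2798 UMIs, had a Pdgfra UMI in 3.51% of 569 knockout and 19.2% of 484 WT cells after thinning, and a Pdgfrb UMI in 2.28% and 0.413%. The WT share of 12.5% of mural-like cells with a Pdgfra UMI is below that microglia-like share.

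For the B chain and its receptor, 44.0% of 361 thinned knockout and 37.5% of 40 thinned WT mural-like cells had a UMI of Pdgfrb without Pdgfb. A UMI of both was found in 5.26% (3.20 to 8.10) and 17.5% (7.34 to 32.8), and these intervals overlap. In endothelial-like cells 25.2% of 532 knockout and 30.5% of 282 WT cells had Pdgfb without Pdgfrb, and 2.26% and 3.55% had both.

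**Figure D4:**
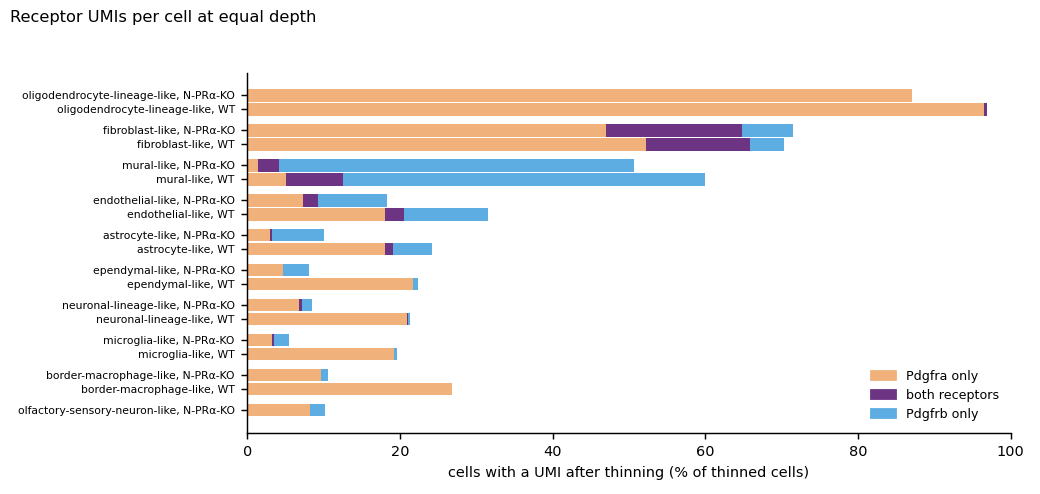
Share of cells with a UMI of Pdgfra only, of both receptors or of Pdgfrb only (horizontal axis, % of cells thinned to 2000 UMIs) for each class and library. Cells with both receptors make up 17.8% and 13.6% of fibroblast-like cells. In the WT library the unrelated microglia-like and endothelial-like cells carry Pdgfra in 19.2% and 20.6%, and mural-like cells in 12.5%.

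Between the libraries, the PDGF genes were set against every gene that reached 20 CPM in at least 1 of the libraries of a class. In fibroblast-like cells 4 PDGF genes reached that level. Of these, 2 differed by 2-fold or more, as 23.8% of 7378 genes did, and both, Pdgfa and Pdgfd, were lower in the knockout library, as 8.59% of the genes were. Pdgfa stood at 17.5 CPM (14.5 to 20.8) against 58.8 CPM (50.9 to 67.5), a log2 ratio of -1.75 (-2.08 to -1.42). Pdgfd stood at 12.1 CPM (9.66 to 14.9) against 38.7 CPM (32.4 to 45.9), a log2 ratio of -1.68 (-2.09 to -1.28). The knockout class includes the 618 cells of cluster 6, a cluster with no WT cell and the lowest levels of both ligands. That does not make such cells absent from the WT library. Clustered on its own, it gave a fibroblast-like cluster of 131 cells with Lum, Col15a1, Col13a1 and Col6a3 among its leading genes. All of these also lead cluster 6. PDGF levels of these 131 cells were not taken separately. Pdgfra had a log2 ratio of -0.08 (-0.15 to -0.0033), and its sign differed between ways of processing. Pdgfrb had 0.94 (0.74 to 1.14), and 0.35 after removal of the trend on GC content described next, where Pdgfra had 0.34.

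In every class the ratio of the libraries followed the GC content of the transcript end, with Spearman correlations across genes of 0.472 to 0.647. Pdgfra (33.6% GC in the last 500 bases), Pdgfc (36.2%), Pdgfd (36.0%) and Pdgfa (39.4%) lie on the side that is lower in the knockout library, and Pdgfb (50.2%) and Pdgfrb (50.4%) on the other. Its part in the class ratios is given by the values after its removal. They are stated beside the printed class ratios of PDGF genes where the direction or the size changes by more than 1.5 times. Ratios between clusters, or with cells left out, are as measured, without removal of the trend. The class trend at Pdgfra was -0.61 in oligodendrocyte-lineage-like and -0.42 in fibroblast-like cells, and at Pdgfrb 0.59 in fibroblast-like cells.

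In endothelial-like cells, clusters 12 and 26 in the knockout library and 19 and 26 in the WT library, 2 of 5 PDGF genes were lower by 2-fold or more, Pdgfra and Pdgfa, where 9.41% of 7320 genes were. Pdgfa stood at 45.7 CPM (40.3 to 51.7) against 123 CPM (109 to 138), a log2 ratio of -1.42 (-1.68 to -1.17), and within arterial-marked cluster 26 at -0.87 (-1.24 to -0.50). In the WT library 108 endothelial-like cells were in the dividing sub-cluster, with Pdgfa at 167 CPM, against 13 cells in the knockout library with 21.5 CPM. Pdgfb there had a log2 ratio of -0.39 (-0.56 to -0.23), and -1.04 with the GC trend removed. Pdgfd had -0.71 (-0.98 to -0.44), -0.30 with the GC trend removed and -1.12 without dividing sub-clusters. Pdgfrb had 0.05 (-0.22 to 0.34), -0.61 with the GC trend removed and -0.47 without the sub-clusters with genes of other classes.

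In mural-like cells, all from cluster 14, 2 of 5 PDGF genes were lower by 2-fold or more, Pdgfra and Pdgfb, where 14.0% of 7026 genes were. Pdgfb stood at 51.6 CPM against 118 CPM (71.2 to 185), a log2 ratio of -1.20 (-1.92 to -0.40) that rests on 19 WT UMIs. Pdgfrb had -0.01 (-0.39 to 0.39), -0.47 with the GC trend removed, and Pdgfa -0.19 (-0.55 to 0.19), 0.07 with the GC trend removed. Without the dividing sub-cluster, which holds 38 of the 52 WT cells, the log2 ratio of Pdgfa was 0.99. The WT cells left were 8 in the pericyte-marked and 6 in the largest sub-cluster. The knockout cells left were 71 and 179 in these, and 108 in the smooth-muscle-marked sub-cluster. The value therefore rests on few WT cells of a different make-up. In microglia-like cells, mostly cluster 7 in the knockout and cluster 8 in the WT library, Pdgfra and Pdgfb, 2 of 3 PDGF genes, were lower by 2-fold or more, where 9.50% of 6707 genes were. Pdgfb had a log2 ratio of -1.75 (-2.03 to -1.47), -2.39 with the GC trend removed and -1.05 (-2.06 to -0.14) within cluster 28, the microglia-like cluster with more than 20 cells in both libraries.

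In oligodendrocyte-lineage-like cells 2 PDGF genes reached 20 CPM. Pdgfra was lower, with a log2 ratio of -1.27 (-1.35 to -1.18) and -0.66 with the GC trend removed, where 13.5% of 8180 genes were lower by 2-fold or more, and Pdgfa was higher, with 1.13 (0.83 to 1.40), where 17.4% were higher. Without the myelin-gene sub-cluster, which holds 9 of the 67 knockout and 149 of the 5048 WT cells, Pdgfra had -0.62 and Pdgfa -0.18. Pdgfra in knockout cluster 31 against the most populous WT precursor cluster, cluster 0, with 4 shared leading genes, had -0.66 (-0.75 to -0.57). Against the other WT precursor clusters it had -0.66 (cluster 1), -0.35 (cluster 5), -0.17 (cluster 15) and 0.30 (0.20 to 0.39, cluster 2), so size and sign depend on the cluster compared. In cells outside the classes that carry it, Pdgfra was lower by 2-fold or more in all 7 classes compared, with log2 ratios from -2.91 in ependymal-like to -1.43 in border-macrophage-like cells. With the GC trend removed it was below 2-fold in endothelial-like (-0.96) and border-macrophage-like (-0.86) cells. With free RNA subtracted it turned direction in border-macrophage-like cells (0.12). In microglia-like (-0.77) and astrocyte-like (0.91) cells the estimate exceeds the measured level, so both counts were set to 3. These values follow only from the total UMIs of the class in each library. The corresponding share of all genes was 7.40% in astrocyte-like, 6.12% in ependymal-like, 5.89% in neuronal-lineage-like and 16.3% in border-macrophage-like cells. Over all cells, Pdgfra stood at 224 CPM in the knockout library and 2382 CPM in the WT library.

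**Figure D5:**
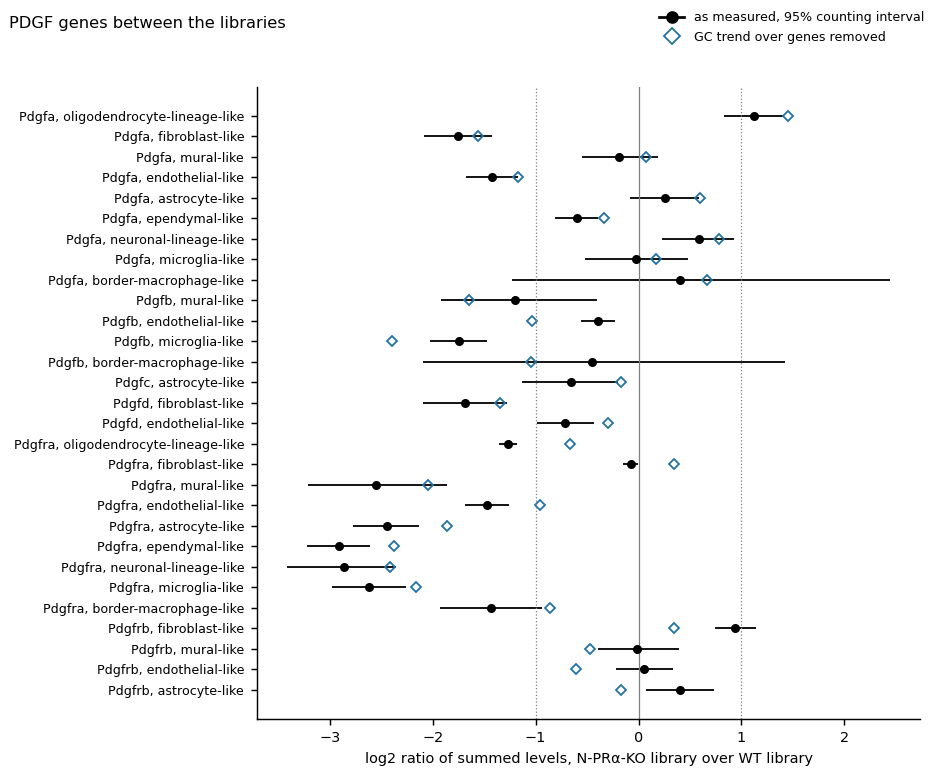
Log2 ratio of summed levels, N-PRα-KO library over WT library (horizontal axis), for each PDGF gene and class with at least 3 UMIs in each library and 20 CPM in either, as black points with 95% counting intervals, and as open diamonds after removal of the trend on GC content. Dotted lines mark 2-fold. Pdgfra lies left of the lower dotted line as measured in every class except fibroblast-like cells, at -0.08.

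Other genes of the PDGF pathway were counted from a list of 53. In fibroblast-like cells 46 were at 20 CPM or more, of which 11 (23.9%) were higher and 3 (6.52%) lower by 2-fold or more, with a median log2 ratio of 0.20 beside -0.02 over all genes. The shares over all genes were 15.2% and 8.59%. The largest ratios were those of Plcg1, a phospholipase bound by active receptors (48.5 against 8.27 CPM, log2 2.55), of Pik3r2, a regulatory subunit of PI3-kinase (23.4 against 4.43 CPM, 2.40, and 1.01 with the GC trend removed), and of Socs3, a suppressor of cytokine signalling (31.2 against 147 CPM, -2.23). Plat, the protease that activates PDGF-C, was at 575 and 535 CPM. Plau, a protease that can activate PDGF-D, was at 26.5 and 6.50 CPM. Both proteases were picked out after their values were seen.

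In oligodendrocyte-lineage-like cells 40 of the 53 were measured, 9 (22.5%) higher and 3 (7.50%) lower, with a median of 0.04 beside -0.12 over all genes. The shares over all genes were 17.4% and 13.5%. The largest ratios were Mapk3, a kinase of the ERK cascade (207 against 14.4 CPM, log2 3.84), Sparc, a secreted PDGF-binding protein (734 against 140 CPM, 2.39), and the kinase gene Src (69.6 against 16.6 CPM, 2.07, and 1.22 with the GC trend removed). Markers of some other classes were also higher in the knockout cells of this class. They stood at 848 against 221 CPM for fibroblast, 783 against 63.6 CPM for mural and 365 against 120 CPM for endothelial markers. Choroid plexus markers were higher too, at 1556 against 170 CPM. Neuronal-lineage markers were lower, at 513 against 1046 CPM. Astrocyte markers (1323 against 1339 CPM) and olfactory-sensory-neuron markers (126 against 134 CPM) differed little. Sparc stood at 5692 CPM in knockout fibroblast-like, 6957 CPM in mural-like and 7989 CPM in endothelial-like cells, and the part of these cells in its ratio was not tested. In endothelial-like cells 44 were measured, 7 (15.9%) higher and 1 (2.27%) lower, beside 17.2% and 9.41% of all genes. The median was -0.13 beside -0.05 over all genes, and 0.12 beside -0.0039 with the GC trend removed. Plcg1 (1.85), the kinase gene Akt1 (1.72) and Mapk3 (1.51) had the largest ratios there, and with the GC trend removed they were 1.23, 0.66 and 0.32.

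In mural-like cells 44 were measured, 3 (6.82%) higher and 9 (20.5%) lower, beside 11.4% and 14.0% of all genes. The median was -0.28 beside -0.04 over all genes, and -0.08 beside -0.0069 with the GC trend removed. Among the 13 negative regulators 5 were lower and 1 higher, with a median of -0.92, and -0.26 with the GC trend removed. Of the 5, Cblb (-0.88) and Dusp6 (-0.54) were then below 2-fold, while Socs3, another of the 13, went from -0.98 to -1.19 and so passed it. All of these were chosen after their values were seen. The largest ratios were Mapk3 (103 against 12.5 CPM, log2 2.47, 1.18 to 6.11) and Spry4 and Spry2, inhibitors of receptor tyrosine kinase signalling (67.5 against 293 CPM, -2.12, and 32.4 against 131 CPM, -2.01). For Mapk3 the WT count was under 3 and was set to 3 for the ratio. Most WT mural-like cells were in the dividing sub-cluster, and the part of that in these ratios was not tested.

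Some genes followed the PDGF genes across classes, measured as the smaller of the libraries' Pearson correlations of log2(CPM + 10) over 10 knockout and 9 WT classes, among 6605 genes. The points of a library share its depth and free RNA, and the correlations are descriptions. Gria3, a glutamate receptor subunit gene (0.96), Sema3d (0.94) and Fign (0.91) were most like Pdgfra. Heyl, a Notch target gene (0.96), Gper1 (0.96) and Lrrc32 (0.96) were most like Pdgfrb, with Heyl at 447 CPM in knockout and 430 CPM in WT mural-like cells. Ndst3 (0.85), Rnf152 (0.84) and Prkar2b (0.83) were most like Pdgfa. Ecscr, an endothelial surface protein gene (0.89), Clip1 (0.89) and Ets1 (0.85) were most like Pdgfb. Ecscr was also present in microglia-like cells, at 192 CPM in the knockout and 80.3 CPM in the WT library. Pdgfb had the opposite order of libraries there, 50.5 and 169 CPM. B3glct (0.80), Cyp7b1 (0.70) and Dag1 (0.69) were most like Pdgfc, and Fzd6 (0.90), Palmd (0.90) and Fbln5 (0.90) most like Pdgfd.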

How the data were processed

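The deposited files hold raw counts, the UMIs of each gene in each cell. The BD Rhapsody WTA Analysis Pipeline was the authors' tool, per the file headers, in version 1.10 (N-PRα-KO) and 1.10.1 (WT), with GENCODE M19 on GRCm38, and had already chosen the barcodes taken for cells. The submitters' processing notes name GRCm38 and mm10, and for the aligner nothing is given in the sources used here. Positions and GC content come from GENCODE M21 on the same build.

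The tables hold 41982217 UMIs in 8336 N-PRα-KO barcodes and 43459947 UMIs in 11438 WT barcodes. The filter (at least 300 genes, at most 25% mitochondrial) kept 4196 and 10069, with 4126 and 1329 barcodes failing the mitochondrial limit. Scrublet in scanpy 1.11.5 called 28 (0.667%) and 173 (1.72%) doublets, which were removed. Counts were scaled to 10000 per cell, and 2000 variable genes per library, 30 components and 20 neighbours went into Leiden clustering (leidenalg 0.10.2, resolution 1) of both libraries together. The 4 classes described by sub-cluster were divided the same way at resolution 0.5, from 1000 variable genes and 20 components.

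A name needed a mean log2 fold of its markers of at least 0.5, a lead of 0.5 over the next class and at least 3 markers found in at least 10% of cells. Among the 10 leading genes of a cluster, markers of its class had to be at least as many as those of any other. The members, gene lists and thresholds were chosen with earlier results of these data known. A first naming rule that included haemoglobin genes left clusters 2 and 23 unnamed. After this was seen those genes were dropped from the naming, which put cluster 2 into the oligodendrocyte-lineage-like and cluster 23 into the fibroblast-like cells.

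CPM carry exact Poisson, shares exact Clopper-Pearson and log2 ratios exact conditional 95% intervals, with counts under 3 set to 3 for ratios. All cover counting error only. Genes were compared if they reached 20 CPM in at least 1 library. Ratios were checked on simulated counts. Named genes were the PDGF genes in every class, the 3 largest absolute ratios of the pathway list in each of 4 classes and the 3 genes most like each PDGF gene. Alternatives were a stricter filter (at least 1000 genes, at most 10% mitochondrial), doublets kept, separate clustering, median-of-ratios scaling, thinning to 2000 UMIs, subtraction of free RNA, removal of the GC trend (statsmodels 0.14.6), the mean of cells and, added after the data were seen, leaving out clusters or sub-clusters.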

Additional observations from a re-analysis of the deposited data

Results flagged for a closer look

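Pdgfa moved in opposite directions in 2 classes. Its log2 ratio, N-PRα-KO over WT, was 1.13 in oligodendrocyte-lineage-like cells and -1.75 in fibroblast-like cells. The difference was not tested, since each genotype is 1 library. In the first class the sign depends on 9 N-PRα-KO cells with myelin genes, and without that sub-cluster the value was -0.18.

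PDGF UMIs were also present in the barcodes that the filter left out, 4140 of the knockout (N-PRα-KO) library and 1369 of the WT library. All 12 values were above the level of 3 counts, 0.254 CPM in the knockout and 0.965 CPM in the WT library. Pdgfra stood at 34.6 CPM in the knockout and 380 CPM in the WT barcodes left out. Pdgfrb stood at 22.1 and 16.4 CPM, and Pdgfa at 37.7 and 53.1 CPM. Pdgfb stood at 11.7 and 10.9 CPM, Pdgfc at 3.30 and 9.33 CPM, and Pdgfd at 5.41 and 26.4 CPM.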

How the results depend on the processing

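The log2 ratios, N-PRα-KO over WT, of 29 gene and class pairs were recomputed under each alternative. Of the values so obtained, 185 stayed within the counting interval of the value reported, 70 lay outside it, and 9 lay outside it with the opposite sign where that interval excludes 0. No paired analysis was possible because each genotype is 1 library. The stricter filter left 8 N-PRα-KO and no WT mural-like cells, 12 N-PRα-KO oligodendrocyte-lineage-like and 9 WT fibroblast-like cells, so it gave no mural-like value. Only 13 N-PRα-KO and 18 WT endothelial-like cells passed it. Pdgfra in fibroblast-like cells (-0.08) has no settled direction. It was -0.42 with the stricter filter, -0.15 with doublets kept, -0.27 without cluster 23 and -0.27 without clusters 2 and 23, but 0.00479 thinned, 0.37 with free RNA subtracted, 0.34 with the GC trend removed and 0.037 without the sub-cluster led by Lhfpl3. Pdgfra in oligodendrocyte-lineage-like cells (-1.27) was -2.06 with the stricter filter, -1.09 with median-of-ratios scaling, -0.67 thinned, -0.66 with the GC trend removed, -0.71 as a mean of cells and -0.62 without the myelin-gene sub-cluster, where Pdgfa was -0.18. Pdgfd in endothelial-like cells (-0.71) was -2.07 with the stricter filter, -0.32 thinned, -0.30 with the GC trend removed and -1.12 without dividing sub-clusters. Pdgfb there (-0.39) was -1.04 with the GC trend removed and -0.63 without dividing sub-clusters. With the GC trend removed Pdgfrb was -0.47 in mural-like and -0.17 in astrocyte-like cells, and Pdgfc was -0.17 in astrocyte-like cells. Pdgfa in mural-like cells was 0.99 without dividing sub-clusters, where the WT cells left were only 8 pericyte-marked cells and 6 of the largest sub-cluster. With free RNA subtracted, Pdgfra was 0.91 in astrocyte-like and 0.12 in border-macrophage-like cells and Pdgfrb -0.071 in astrocyte-like cells. Where the Pdgfra estimate exceeds the measured level, as in astrocyte-like, microglia-like and endothelial-like cells, both libraries were set to 3 counts. Such values reflect only the total UMIs of the class and are among those counted above. Otherwise the cause was not tested. Depth limits Pdgfc most, and the 61 to 68 UMIs behind WT mural-like Pdgfrb and Pdgfa.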
